A study of Mus musculus with 32 samples.

Results

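Fatty acid oxidation, ketogenesis and target genes of the nuclear receptor PPARA were followed in mouse liver as a set of 37 genes: Ppara itself, its co-activator Ppargc1a, the enzymes that activate, shuttle and degrade fatty acids, and textbook PPARA targets such as Angptl4, Cyp4a14, Fgf21 and Pdk4. The members were found on the array through the RefSeq identifier of each probe, and the brightest probe stood for a gene. All 37 of the 37 members were on the array and all 37 could be tested, among 23106 genes tested in all. The livers came from male, wild-type, singly housed C57BL/6 mice, 1 mouse per array and 32 arrays in all. Control mice, called NS, lived in a constant cycle of 12 h light and 12 h dark. Jet-lagged mice, called CJ, were switched repeatedly from the age of 4 weeks onward between a pair of rooms whose lights came on 8 h apart. Both schedules were sampled at zeitgeber time (ZT, counted in hours from lights on) 2, 10 and 18 and at the ages of 12 and 30 weeks. These made 12 groups, with n = 2 in the ZT2 groups and n = 3 in all later ones. How long before sampling a CJ mouse had last been switched, and when any mouse had last eaten, is not given in the sources used here.

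During fasting the liver takes up fatty acids, couples them to coenzyme A, passes them through the carnitine shuttle into mitochondria and shortens them by beta-oxidation. Very long chains are first shortened in peroxisomes, and part of the acetyl-CoA leaves the liver as ketone bodies. PPARA, a receptor activated by fatty acids, binds DNA together with RXR and switches on genes of nearly every step. Mice eat mostly in the dark, so the resting phase is also the longest daily fast, and the liver clock adds its own rhythm to Ppara and to several of its targets.

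Between 43.4% and 58.1% of probes on an array were well above background. Levels below are log2 of the processed signal relative to the 75th percentile of the same array, so a level of 0 equals that percentile, a difference of 1 is a 2-fold change, and levels of different genes were not set against each other. The 10 hepatocyte markers averaged between 8.36 and 8.91 on every array. Markers of other tissues did not stay constant: the mean of 16 pancreatic acinar markers ran from -4.37 to 4.02 and was above 0 on 10 arrays, and that of 16 skeletal muscle markers ran from -4.97 to 2.98 and was above 0 on 10 arrays. The calls lost without either set of 10 arrays are named with each comparison, many with their adjusted p. Such a fit also has fewer mice. Without the acinar-rich arrays, CJ ZT2 kept only mouse 2, CJ ZT10 only mouse 1 and NS ZT18 only mouse 3 at 12 weeks. At 30 weeks CJ ZT10 kept only mouse 1. Without the muscle-rich arrays, CJ ZT10 kept only mouse 1 and NS ZT18 only mouse 3 at 12 weeks. At 30 weeks NS ZT18 kept only mouse 2 and CJ ZT18 only mouse 3. A call lost with such a group does not tell other tissue from fewer mice. In whole liver RNA, fewer cells of a type and less RNA per cell cannot be told apart. A call below means a Benjamini-Hochberg adjusted p under 0.05 over all 23106 genes from limma, with the slide (8 slides of 4 arrays) as a random block.

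Since PPARA with RXR binds a direct repeat of the half-site AGGTCA, the promoters of the members were searched for that repeat and for clock-related elements, on both strands, between 250 bases before and 50 bases after the start of the gene (RefSeq, build GRCm38.p6). A promoter was at hand for 30 of the 37 members. The exact direct repeat was found in 0 of the 30, against 0.04% of all 32851 promoters. The form that leaves 1 base of each half-site open was found in 1 member, Fabp1, which encodes the main fatty acid binding protein of liver (0.381% of all promoters). The E-box CACGTG, the site of clock activators, was found in 2 members, Fgf21 and Acot4 (6.67% of the members, 7.15% of all promoters). The D-box TTANNTAA, the site of DBP and its relatives, was found in 1 member, Acadvl (6% of all promoters). The REV-ERB/ROR element was found in 0 members (0.021% of all promoters). A match is a string of letters in this window and says nothing of binding. The 4 stretches with a match are printed 5′ to 3′ on the strand of the gene, with the match in capitals, and start 92, 75, 91 and 214 bases before the gene start.
Fabp1, chr6:71199787-71199849, plus strand, direct repeat: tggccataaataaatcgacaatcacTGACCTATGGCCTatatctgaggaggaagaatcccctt
Fgf21, chr7:45615510-45615565, minus strand, E-box: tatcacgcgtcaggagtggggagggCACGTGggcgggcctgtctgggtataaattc
Acot4, chr12:84038288-84038343, plus strand, E-box: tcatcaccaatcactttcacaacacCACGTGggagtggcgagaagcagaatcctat
Acadvl, chr11:70015585-70015642, minus strand, D-box: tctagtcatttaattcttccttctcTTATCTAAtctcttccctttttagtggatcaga
For comparison, the last 60 bases before the start are printed for 4 members whose daily course is described next, which held none of the elements in the window.
Pdk4, chr6:5496279-5496338, minus strand: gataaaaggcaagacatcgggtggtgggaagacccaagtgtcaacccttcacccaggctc
Ppara, chr15:85735716-85735775, plus strand: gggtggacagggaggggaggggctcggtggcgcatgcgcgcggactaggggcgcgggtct
Cpt1a, chr19:3323241-3323300, plus strand: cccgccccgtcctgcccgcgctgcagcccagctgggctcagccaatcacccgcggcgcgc
Eci2, chr13:34994145-34994204, minus strand: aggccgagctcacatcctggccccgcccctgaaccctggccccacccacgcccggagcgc

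Members of the set did not vary as one block. The gap between the highest and the lowest of the 12 group means had a median of 0.98 over the 37 members and ran from 0.24 for Etfdh to 4.35 for Acot3. It was small in the 11 genes of mitochondrial beta-oxidation (median 0.47) and intermediate in the 5 peroxisomal genes (median 0.95). It was wide in the 4 acyl-CoA thioesterases (median 2.24), in the omega-hydroxylases Cyp4a10 (2.48) and Cyp4a14 (4.34) and in Pdk4 (3.45). Of 37 members, 22 (59.5%) were called in at least 1 of 16 comparisons, where 30.6% of all 23106 genes were. Of the 11 mitochondrial genes, 1 was among them, Eci1. Whether the groups of members differed in these counts was not tested.

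**Figure D1:**
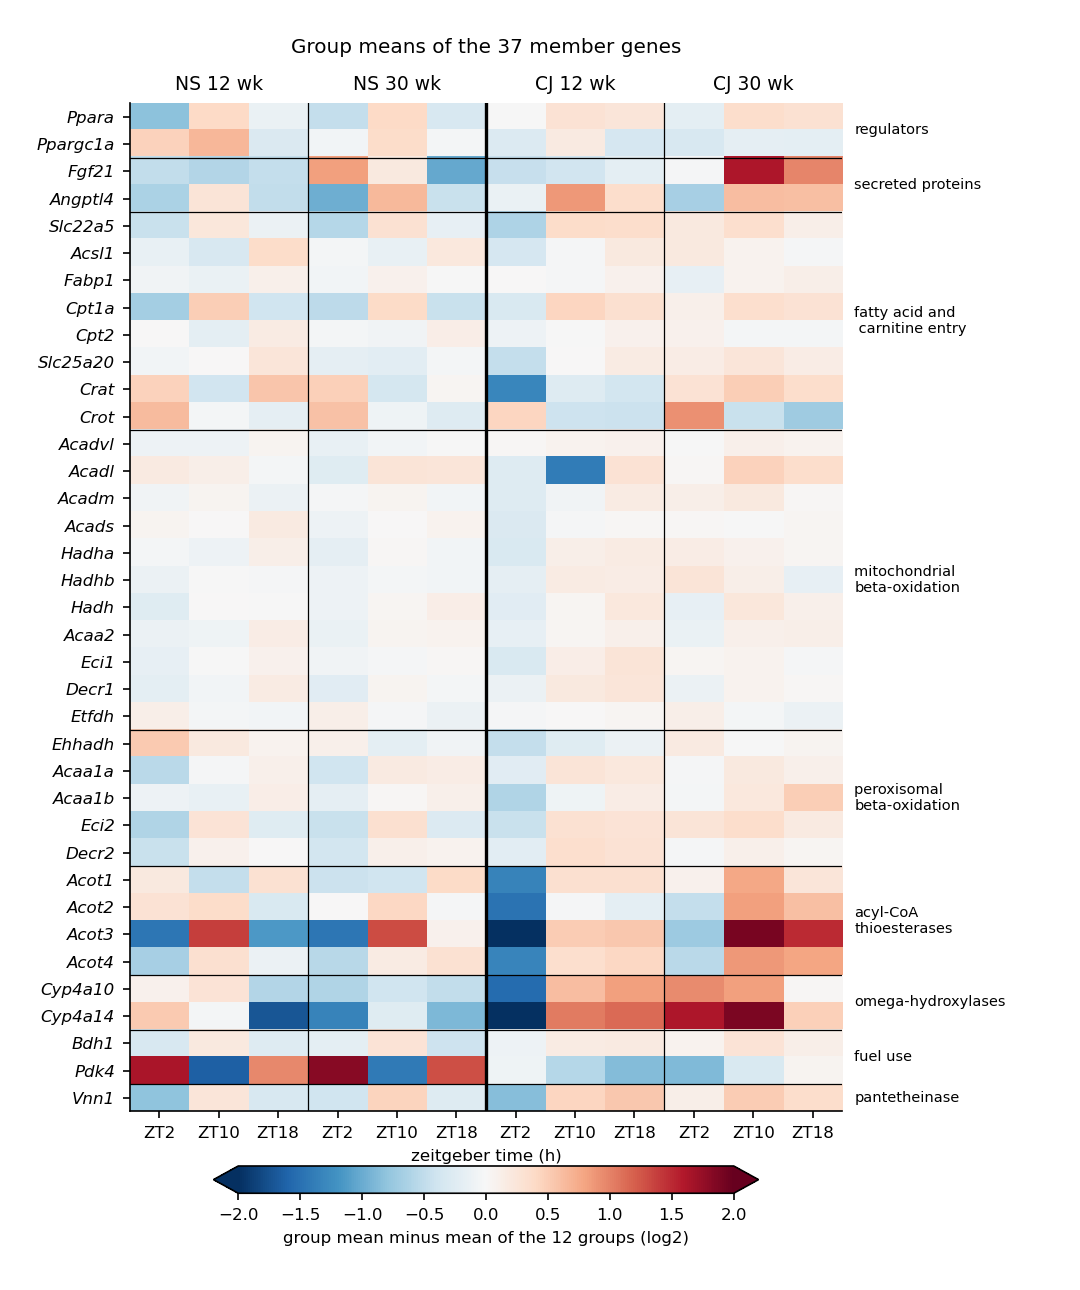
Mean level of each of the 37 members in the 12 groups, shown as the difference from the member's own mean over the groups (log2, colour scale from -2 to 2, values beyond it in the end colours), with rows ordered by role and columns by schedule, age and ZT. Pdk4 alternates between high and low in NS mice, the mitochondrial genes stay pale, and Acadl is low in 1 group through 1 array.

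The first question was how these genes changed over the day in mice on a constant cycle. At 12 weeks, 11 of 37 members were called in NS mice, where 17.5% of all genes were called: Pdk4, Ppara, Ppargc1a, Cpt1a, Cpt2, Crot, Acsl1, Acaa1a, Eci2, Decr2 and Acot3. At 30 weeks, 10 of 37 were called, where 11.2% of all genes were called: Pdk4, Ppara, Cpt1a, Crot, Slc22a5, Acaa1a, Eci2, Decr2, Angptl4 and Bdh1. The ages shared 7 of these calls, that is 7 of the 11 at 12 weeks and 7 of the 10 at 30 weeks. The highest of the 3 group means fell at ZT10, late in the resting phase, for 6 of 11 called members at 12 weeks and 8 of 10 at 30 weeks. Called or not, it fell at ZT10 for 16 and 20 of the 37 members. For all genes, neither the peak times nor the calls shared between the ages were counted. Pdk4 and Crot were highest at ZT2, early in the light phase. Median ranges over the 3 times were 0.53 and 0.44 for the members against 0.34 and 0.31 for all genes.

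Pdk4 encodes the kinase that switches off pyruvate dehydrogenase and so spares glucose while fat is burned. It had the largest daily range of the called members at both ages. In NS mice at 12 weeks its levels were 1.79 and 2.03 at ZT2, -1.47, -1.34 and -1.36 at ZT10, and 1.38, 0.5 and 1.74 at ZT18. In NS mice at 30 weeks they were 2.08 and 1.84 at ZT2, -1.5, -1.47 and -0.45 at ZT10, and 1.45, 1.77 and 1.54 at ZT18. Every NS mouse at ZT10 lay below every NS mouse at ZT2 and ZT18 of its age, so the lowest values fell at the time when other members of the set peaked. The range was 3.27 (9.66-fold, adjusted p = 1.13e-05 in limma) at 12 weeks and 3.23 (9.4-fold, adjusted p = 1.6e-05) at 30 weeks. Both calls were kept in 32 of 32 leave-one-out fits and under 12 of 12 other settings.

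Ppara and Cpt1a, the receptor and the outer mitochondrial carnitine palmitoyltransferase that sets the pace of fatty acid entry, ran in the opposite phase to Pdk4. Ppara stood at 5.13 and 4.8 at ZT2, 6.09, 6.31 and 6.16 at ZT10, and 5.52, 5.77 and 5.79 at ZT18 in NS mice at 12 weeks, and at 5.3 and 5.4 at ZT2, 6.54, 6.21 and 5.94 at ZT10, and 5.42, 5.35 and 5.56 at ZT18 at 30 weeks. All 3 mice at ZT10 lay above both mice at ZT2 and all 3 at ZT18 at either age. The range was 1.21 (adjusted p = 0.000536) at 12 weeks and 0.87 (adjusted p = 0.00503) at 30 weeks, where it was lost without NS ZT10 mouse 1 (adjusted p = 0.0539). Its other 2 probes gave ranges of 1.17 and 0.94 at 12 weeks. Cpt1a stood at 4.74 and 4.5 at ZT2, 5.87, 5.9 and 5.49 at ZT10, and 4.42, 4.88 and 5.14 at ZT18 in NS mice at 12 weeks, and at 4.82 and 4.63 at ZT2, 5.56, 5.85 and 5.5 at ZT10, and 4.87, 4.63 and 4.9 at ZT18 at 30 weeks. Again every mouse at ZT10 lay above every mouse at the other times of its age. The range was 1.17 (adjusted p = 0.000532) and 0.91 (adjusted p = 0.00375), kept in 32 of 32 leave-one-out fits at each age, and its second probe gave 0.98 and 0.84.

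Among the peroxisomal genes, Eci2, an isomerase for unsaturated chains that is found in peroxisomes and mitochondria, followed the same course. In NS mice Eci2 stood at 6.05 and 5.9 at ZT2, 6.84, 7.0 and 6.58 at ZT10, and 6.12, 6.15 and 6.46 at ZT18 at 12 weeks, and at 5.87 and 6.22 at ZT2, 6.81, 6.91 and 6.86 at ZT10, and 6.3, 6.27 and 6.24 at ZT18 at 30 weeks. The ZT10 mice lay above all others of their age, with ranges of 0.87 (adjusted p = 0.000484) and 0.77 (adjusted p = 0.00114), called in 32 of 32 leave-one-out fits. Decr2, the peroxisomal dienoyl-CoA reductase, stood at 4.89 and 4.76 at ZT2, 5.33, 5.44 and 5.18 at ZT10, and 5.23, 5.23 and 5.43 at ZT18 at 12 weeks, and at 4.95 and 4.77 at ZT2, 5.41, 5.44 and 5.36 at ZT10, and 5.37, 5.17 and 5.36 at ZT18 at 30 weeks. It was lowest at ZT2 and similar at the later times, with ranges of 0.53 (adjusted p = 0.0167, lost without either NS ZT2 mouse, adjusted p up to 0.13) and 0.47 (adjusted p = 0.0385, lost in 10 of 32 leave-one-out fits, adjusted p up to 0.378). Acaa1a, a peroxisomal thiolase, was also lowest at ZT2, with ranges of 0.65 (adjusted p = 0.00609, 0.0985 without NS ZT2 mouse 2) and 0.59 (adjusted p = 0.011, 0.205 without NS ZT2 mouse 1). Ehhadh, the peroxisomal bifunctional enzyme, and the thiolase Acaa1b were not called over the day in NS mice.

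Angptl4, a secreted inhibitor of lipoprotein lipase and a strong PPARA target, was called in NS mice at 30 weeks only. It stood at 4.36 and 4.5 at ZT2, 6.38, 6.3 and 5.68 at ZT10, and 4.94, 4.58 and 5.21 at ZT18 there, with every ZT10 mouse above all others and a range of 1.62 (adjusted p = 0.00293, called in 32 of 32 leave-one-out fits). At 12 weeks it stood at 5.11 and 4.38 at ZT2, 5.51, 6.14 and 5.38 at ZT10, and 5.22, 4.74 and 4.87 at ZT18, where the ZT10 mice again held the 3 highest values but the test did not pass. Whether the ages differed was not tested.

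Crot, which moves chains shortened in peroxisomes onto carnitine, had a course of its own. In NS mice it stood at 5.93 and 5.81 at ZT2, 5.13, 5.58 and 4.89 at ZT10, and 4.79, 4.76 and 5.31 at ZT18 at 12 weeks, and at 5.76 and 5.71 at ZT2, 5.23, 5.36 and 4.72 at ZT10, and 5.1, 4.92 and 4.94 at ZT18 at 30 weeks. In CJ mice it stood at 5.76 and 5.63 at ZT2, 5.13, 4.48 and 4.73 at ZT10, and 4.7, 4.6 and 4.94 at ZT18 at 12 weeks, and at 5.84 and 6.3 at ZT2, 4.82, 4.83 and 4.78 at ZT10, and 4.48, 4.31 and 4.62 at ZT18 at 30 weeks. Within each schedule and age, both ZT2 mice were above every later mouse. Its ranges were 0.81 (adjusted p = 0.0143) and 0.85 (adjusted p = 0.014) in NS mice and 0.86 (adjusted p = 0.0138) and 1.63 (adjusted p = 0.000173) in CJ mice at 12 and 30 weeks. The call in CJ mice at 30 weeks was kept in 32 of 32 leave-one-out fits, and each of the other 3 was lost when either ZT2 mouse of its own schedule and age was left out (adjusted p up to 0.142). The schedules did not differ by the interaction test (adjusted p = 0.915 and 0.302). Crot was the sole member called over the day in all 4 combinations of schedule and age.

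**Figure D2:**
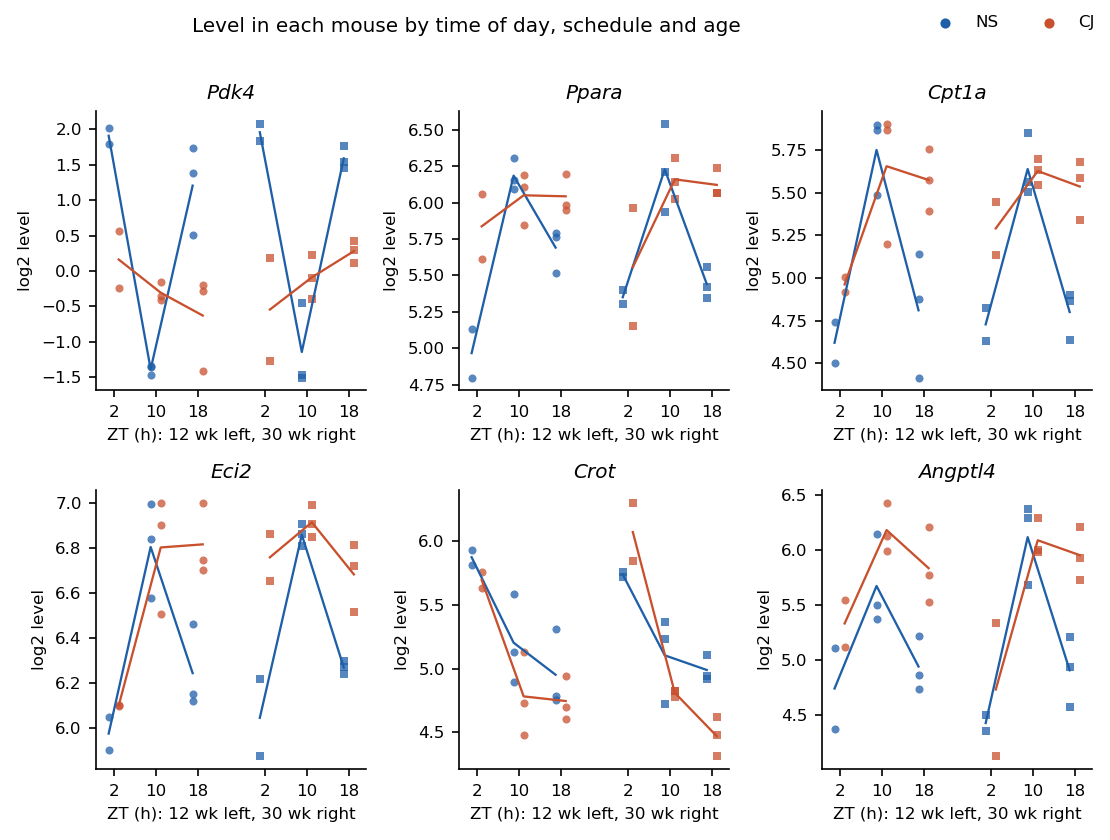
Level (log2) of Pdk4, Ppara, Cpt1a, Eci2, Crot and Angptl4 in each mouse (points) with the group mean (lines) by ZT, for NS (blue) and CJ (orange), at 12 weeks on the left and 30 weeks on the right of each panel. In NS mice Pdk4 dips at ZT10 where Ppara, Cpt1a, Eci2 and Angptl4 peak, and in CJ mice the Pdk4 line runs between the NS extremes.

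The remaining calls over the day in NS mice were smaller or less stable. Acsl1, the main liver acyl-CoA synthetase, ranged over 0.69 at 12 weeks and was highest at ZT18 (adjusted p = 0.00178, called in 32 of 32 leave-one-out fits, with 1 CJ array without a value left out). Cpt2, the inner membrane partner of Cpt1a, ranged over 0.37 (adjusted p = 0.0385), but the call was lost in 9 of 32 fits and kept under only 2 of 12 other settings (adjusted p up to 0.362). Ppargc1a ranged over 0.96 (adjusted p = 0.0389, lost in 8 of 32 fits, kept under 9 of 12 other settings, adjusted p up to 0.113). At 30 weeks Slc22a5, the carnitine importer, ranged over 0.88 (adjusted p = 0.0251, lost in 4 of 32 fits), and Bdh1, which reduces acetoacetate to the ketone body 3-hydroxybutyrate, over 0.68 (adjusted p = 0.0171, lost in 3 of 32). Both were highest at ZT10.
Acot3, a peroxisomal acyl-CoA thioesterase, had the second widest range of the NS calls at 12 weeks. It stood at -0.99 and -0.7 at ZT2, 1.26, 2.16 and 1.73 at ZT10, and -0.07, -1.25 and -0.86 at ZT18 there, with all ZT10 mice above all others, a range of 2.84 (7.16-fold, adjusted p = 0.0191) and a loss of the call without NS ZT10 mouse 2 or mouse 3 (adjusted p up to 0.0769). At 30 weeks it stood at -1.51 and -1.19 at ZT2, 0.83, 1.64 and 3.13 at ZT10, and 0.56, 0.84 and 0.43 at ZT18, and the range of 2.74 did not pass the test (adjusted p = 0.0777). In CJ mice it stood at -2.49 and -1.74 at ZT2, 1.38, -0.92 and 2.16 at ZT10, and -0.68, 1.83 and 2.16 at ZT18 at 12 weeks, and at 1.23 and -1.27 at ZT2, 1.14, 2.49 and 3.14 at ZT10, and 1.62, 1.26 and 2.58 at ZT18 at 30 weeks. There the ZT10 and ZT18 mice overlapped at either age. The Acot genes are close copies of each other, as are Cyp4a10 and its neighbours and Acaa1a and Acaa1b, so their probes may share signal.

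Leaving out the arrays of other tissue ended several of these calls. Without the acinar-rich arrays, the calls lost in NS mice were at 12 weeks Crot and Cpt2 (adjusted p = 0.0906 and 0.139), and at 30 weeks Crot (0.0529), Ppara (0.105), Acaa1a (0.0504), Decr2 (0.0538), Angptl4 (0.0879) and Slc22a5 (0.15). Without the muscle-rich arrays, they were at 12 weeks Crot (adjusted p = 0.131), Cpt2 (0.129), Acot3 (0.0531) and Decr2 (0.0657), and at 30 weeks Crot (0.155), Ppara (0.112), Acaa1a (0.0604), Decr2 (0.161), Bdh1 (0.0805) and Slc22a5 (0.0579). Pdk4, Cpt1a and Eci2 were called without either set at both ages. The 12-week call of Acsl1 could not be examined without either set, since the CJ mouse then left at ZT10 and 12 weeks had no value. The part of the other tissues in the lost calls was not tested.

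The second question was whether the daily course differed under jet lag. In CJ mice at 12 weeks, 9 of 37 members were called over the day, where 5.67% of all genes were called (in the authors' deposited log2 table, 18 of the 35 members it holds, with 18.4% of its 12693 genes), and at 30 weeks 2 of 37 (Crot, and Angptl4 with a range of 1.27, adjusted p = 0.0325, lost in 4 of 32 leave-one-out fits), where 3.71% were called. The 9 were Acaa1b, Acot1, Acot3, Acot4, Crot, Decr2, Eci1, Eci2 and Slc22a5. They were led by the thioesterases Acot3 (range 2.99, adjusted p = 0.042, lost in 22 of 32 leave-one-out fits), Acot4 (1.73, adjusted p = 0.00949) and Acot1 (1.65, adjusted p = 0.0219). The calls of Acot1, Acot4, Crot, Decr2 and Slc22a5 were each lost without 1 or either of the 2 CJ ZT2 mice (adjusted p up to 0.365 without mouse 1 and 0.203 without mouse 2), and Eci2 (range 0.75, adjusted p = 0.00316) was kept in 32 of 32. Eci1 was lost in 3 of 32 fits and Acaa1b, with a range of 0.74 (adjusted p = 0.0397), in 7 (adjusted p up to 0.199 and 0.228). CJ ZT2 mouse 1 had an acinar marker mean of 1.40 against -3.53 in its partner. Leaving out either mouse of a ZT2 group, here and elsewhere, leaves 1 mouse in that group. A call lost in such a fit does not tell the trait of a mouse from the smaller group. With all 10 arrays of high acinar markers left out, only Slc22a5 stayed called, and without the 10 of high muscle markers Slc22a5, Eci2 and Acot1 did. Both fits leave 1 mouse in CJ ZT10 at 12 weeks, and the former also in CJ ZT2. The lost calls had an adjusted p up to 0.345 and 0.161, and Angptl4 at 30 weeks was lost without either set (0.151 and 0.302). The part of the other tissues in these calls was not tested.

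A test of the schedule by time interaction asks directly whether the daily course differed. It called 1 of 37 members at 12 weeks, where 1.93% of all genes were called, and 1 of 37 at 30 weeks, where 1.87% were called. At both ages that member was Pdk4. In CJ mice at 12 weeks Pdk4 stood at 0.56 and -0.24 at ZT2, -0.4, -0.16 and -0.35 at ZT10, and -1.41, -0.28 and -0.2 at ZT18. In CJ mice at 30 weeks it stood at -1.27 and 0.18 at ZT2, -0.1, -0.39 and 0.22 at ZT10, and 0.12, 0.42 and 0.3 at ZT18. Its CJ values lay mostly between the NS extremes, and its range over the day there, 0.78 and 0.94, did not pass the test (adjusted p = 0.522 and 0.426). The CJ minus NS difference of Pdk4 was -1.73 ± 0.46 (SE) at ZT2, 1.07 ± 0.37 at ZT10 and -1.83 ± 0.37 at ZT18 at 12 weeks, a range of 2.90 between times (adjusted p = 0.00729). At 30 weeks it was -2.70 ± 0.46, 1.11 ± 0.37 and -1.23 ± 0.37, a range of 3.81 (adjusted p = 0.0037). CJ mice thus held less Pdk4 mRNA than NS mice at ZT2 and ZT18 and more at ZT10, with the ZT18 difference at 12 weeks (adjusted p = 0.00716, 0.0544 without CJ ZT18 mouse 1) and the ZT2 difference at 30 weeks (adjusted p = 0.00296, up to 0.144 without NS ZT2 mouse 1 or CJ ZT2 mouse 1) called on their own. The ZT18 call was lost without the acinar-rich or the muscle-rich arrays, when only mouse 3 was left in NS ZT18 at 12 weeks. The ZT2 call was lost without the muscle-rich arrays.

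Both interaction calls of Pdk4 were kept in 32 of 32 leave-one-out fits (adjusted p up to 0.038 and 0.0176). With the slide as a fixed block the adjusted p rose to 0.123 at 12 weeks and 0.0601 at 30 weeks, with ranges of 2.88 and 4.10. Without the acinar-rich arrays the ranges were 3.55 and 3.24 (adjusted p = 0.0696 and 0.212), and without the muscle-rich arrays 3.63 and 3.70 (adjusted p = 0.163 and 0.11). With the marker means as covariates the range at 12 weeks was 2.69 (adjusted p = 0.129). On the 4 slides that held an NS and a CJ mouse of the same time and age, the CJ mouse was higher in Pdk4 at ZT10 (by 0.95 and 1.38) and lower at ZT18 (by 1.66 and 1.47), the same directions as over all slides.

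Skeletal muscle also expresses Pdk4, so its level is given beside the muscle markers. In NS mice at ZT2 the muscle marker mean ran from -4.72 to -0.51 while Pdk4 ran from 1.79 to 2.08. In NS mice at ZT10 the marker mean ran from -4.91 to -1.96 and Pdk4 from -1.5 to -0.45. In NS mice at ZT18 the marker mean ran from -0.05 to 1.62 and Pdk4 from 0.50 to 1.77. In CJ mice at ZT18 and 30 weeks the marker mean reached 2.85 and Pdk4 stayed at or below 0.42. NS mice thus had lower muscle markers at ZT10 than at ZT18, as they had lower Pdk4, while at ZT2 Pdk4 was high over a wide range of the markers. Without the muscle-rich arrays the daily range in NS mice was called at both ages and the interaction at neither. The part of muscle tissue in the Pdk4 values was not tested.

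**Figure D3:**
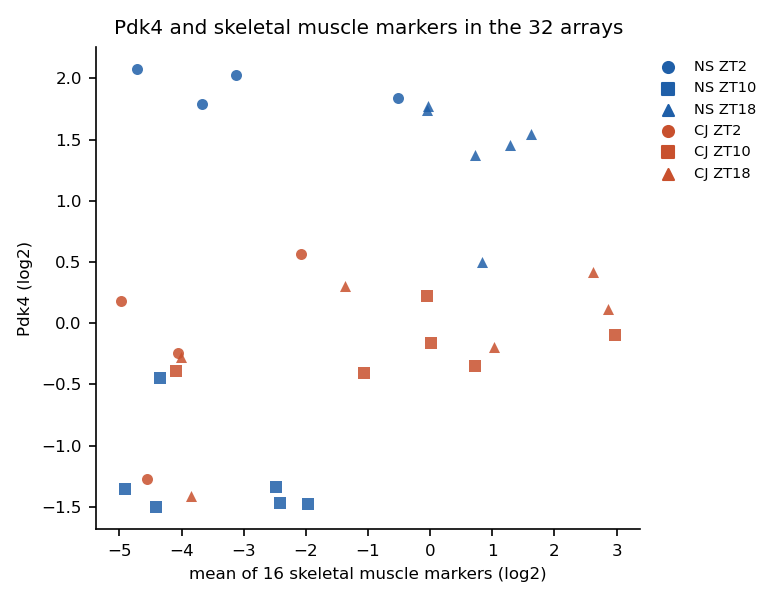
Level of Pdk4 (vertical axis, log2) against the mean of 16 skeletal muscle markers (horizontal axis, log2) on each of the 32 arrays, coloured by schedule and shaped by ZT. NS mice at ZT2 (blue circles) are high in Pdk4 over a marker range from -4.72 to -0.51.

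The other daily members did not pass the interaction test. For Cpt1a the adjusted p was 0.25 at 12 weeks and 0.214 at 30 weeks, for Eci2 0.316 and 0.167, for Ppara 0.195 and 0.341, and for Angptl4 0.89 and 0.36. A p above the threshold does not show that their course was alike in both schedules. At unadjusted p under 0.05, 9 members passed at 12 weeks and 8 at 30 weeks. The share of all genes at that threshold was not counted, here or below. Such counts therefore say nothing of the members in particular. In the authors' deposited log2 table, the interaction called 8 of the 35 members it holds at 12 weeks, with 5.76% of its genes, and 5 of 35 at 30 weeks, with 9.76%.

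The third question was whether the level over the whole day differed, as the CJ minus NS difference of the mean of the 3 times. At 12 weeks, 3 of 37 members were higher in CJ mice, where 1.95% of all genes were higher: Angptl4 by 0.65 ± 0.17 (SE, adjusted p = 0.0277), Ppara by 0.35 ± 0.10 (adjusted p = 0.049) and Decr2 by 0.25 ± 0.07 (adjusted p = 0.0427). At 12 weeks, 3 of 37 were lower, where 2.41% of all genes were lower: Crat fell by 0.86 ± 0.20 (adjusted p = 0.018), Pdk4 by 0.83 ± 0.22 (adjusted p = 0.0325) and Ehhadh by 0.54 ± 0.13 (adjusted p = 0.0177). Of these calls, Crat and Ehhadh were each lost without NS ZT2 mouse 1, NS ZT2 mouse 2 or CJ ZT2 mouse 2 (adjusted p up to 0.102 and 0.0798). Angptl4 and Pdk4 were lost in 8 of 32 leave-one-out fits (adjusted p up to 0.135 and 0.168), Decr2 in 13 and Ppara in 25 (adjusted p up to 0.23 and 0.229). Without NS ZT2 mouse 2, 0 of 37 members were called, and with no slide block 0, so the count at 12 weeks rests on single mice and on the block. Without the acinar-rich arrays none of the 6 was called (adjusted p from 0.0552 for Pdk4 to 0.16 for Ppara), and without the muscle-rich arrays only Ehhadh was (the others from 0.0706 for Crat to 0.256 for Decr2).

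Crat, the mitochondrial carnitine acetyltransferase, was near background. In NS mice at 12 weeks it stood at -1.43 and -1.33 at ZT2, -2.69, -1.78 and -2.19 at ZT10, and -1.32, -1.77 and -1.3 at ZT18, and in CJ mice at -2.66 and -3.74 at ZT2, -1.79, -2.38 and -2.26 at ZT10, and -3.09, -2.23 and -1.61 at ZT18. At ZT2 both CJ mice lay below both NS mice, and 1 of these 2 CJ arrays was not well above background. At 30 weeks the CJ minus NS difference was 0.33 ± 0.20 and did not pass. Crat stood at -1.66 and -1.54 at ZT2, -2.71, -2.0 and -2.23 at ZT10, and -1.5, -1.75 and -1.92 at ZT18 in NS mice and at -1.52 and -1.55 at ZT2, -2.11, -0.83 and -1.22 at ZT10, and -1.89, -2.08 and -0.98 at ZT18 in CJ mice at that age.

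At 30 weeks, 3 of 37 members were higher in CJ mice over the mean of the 3 times, where 1.93% of all genes were higher: Eci2 by 0.39 ± 0.07 (adjusted p = 0.00241), Cpt1a by 0.44 ± 0.11 (adjusted p = 0.0169) and Cyp4a14 by 2.15 ± 0.53 (4.44-fold, adjusted p = 0.0167). Only Pdk4 was lower, by 0.94 ± 0.22 (adjusted p = 0.0109), where 4.07% of all genes were lower. Eci2 was kept in 32 of 32 leave-one-out fits and under 12 of 12 other settings, including those without the acinar-rich or the muscle-rich arrays. Cpt1a was lost without NS ZT2 mouse 2 or CJ ZT2 mouse 1 (adjusted p up to 0.122), Cyp4a14 without either NS ZT2 mouse 1 or CJ ZT2 mouse 1 (adjusted p up to 0.106) and Pdk4 without CJ ZT2 mouse 1 (adjusted p = 0.106), when 1 of 37 members was called in all. Cyp4a14 and Pdk4 were also lost without the acinar-rich arrays (adjusted p = 0.186 and 0.0543) and without the muscle-rich arrays (adjusted p = 0.0735 and 0.14). The median change of all 37 members at 30 weeks was 0.16, against -0.01 for all genes, and 31 of 37 had a positive sign. At 12 weeks it was 0.01, against 0.02 for all genes, and 20 of 37 had a positive sign. The signs of all genes were not counted.

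By time of day, members were called at ZT2 and ZT18. At ZT10 limma called 0 of 37 members at 12 weeks (7 at unadjusted p under 0.05), where 0.831% of all genes were higher and 0.978% lower, and 0 of 37 at 30 weeks (7 at unadjusted p under 0.05), where 0.203% were higher and 0.476% lower. The authors' deposited log2 table, run through the same test, called 1 and 3 of its 35 members there, with 11.3% and 4.04% of its genes. At ZT2 limma called 0 of 37 at 12 weeks (10 at unadjusted p under 0.05, and 1 of 35 from the deposited table, with 0.615% of its genes), where 0.0909% were higher and 0.156% lower. At ZT2 and 30 weeks it called Eci2 higher (1 of 37, with 0.506% of all genes) and Pdk4 lower (1 of 37, with 0.866%). At ZT18 and 12 weeks it called Cpt1a and Eci2 higher (2 of 37, with 1% of all genes) and Pdk4 lower (1 of 37, with 1.87%). At ZT18 and 30 weeks it called Cpt1a, Eci2, Angptl4 and Ppara higher (4 of 37, with 1.7%) and 0 of 37 lower (1.82% of all genes).

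In CJ mice Cpt1a stood at 4.92 and 5.0 at ZT2, 5.91, 5.2 and 5.87 at ZT10, and 5.58, 5.4 and 5.76 at ZT18 at 12 weeks, and at 5.45 and 5.14 at ZT2, 5.64, 5.55 and 5.7 at ZT10, and 5.68, 5.34 and 5.59 at ZT18 at 30 weeks. Set against the NS values above, all 3 CJ mice at ZT18 were above all 3 NS mice at either age, as were both CJ mice at ZT2 above both NS mice, while at ZT10 the schedules overlapped. The ZT18 difference was 0.72 ± 0.18 (adjusted p = 0.0333) at 12 weeks and 0.75 ± 0.18 (adjusted p = 0.0227) at 30 weeks. Eci2 in CJ mice stood at 6.1 and 6.1 at ZT2, 6.9, 6.5 and 7.0 at ZT10, and 6.75, 6.7 and 7.0 at ZT18 at 12 weeks, and at 6.86 and 6.65 at ZT2, 6.91, 6.99 and 6.85 at ZT10, and 6.72, 6.52 and 6.81 at ZT18 at 30 weeks. It too separated the schedules at ZT18 at either age and overlapped at ZT10. At ZT2 both CJ mice lay above both NS mice at either age, at 12 weeks narrowly, with a difference of 0.15 that was not called. Its differences were 0.52 ± 0.13 (adjusted p = 0.027) and 0.45 ± 0.13 (adjusted p = 0.0478) at ZT18 and 0.70 ± 0.16 (adjusted p = 0.025, up to 0.315 without any 1 of NS ZT2 mice 1 and 2 and CJ ZT2 mouse 1, and 0.0608 and 0.0597 without the acinar-rich and the muscle-rich arrays) at ZT2 and 30 weeks.

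The ZT18 calls at 12 weeks were lost without the arrays with other tissue, but then only mouse 3 was left in NS ZT18. NS ZT18 mice 1 and 2 of that age had acinar means of 1.11 and 0.83 and muscle means of 0.73 and 0.84. Without the acinar-rich arrays the differences of Cpt1a and Eci2 there were 0.52 and 0.37, and without the muscle-rich arrays 0.34 and 0.24. At 30 weeks and ZT18 they ran from 0.73 to 0.95 for Cpt1a (called under 10 of 12 other settings) and from 0.42 to 0.54 for Eci2 (called under 6 of 12). Without the muscle-rich arrays both calls were lost at 30 weeks, where only NS mouse 2 and CJ mouse 3 were then left at ZT18. The Eci2 call at 30 weeks was also lost without the acinar-rich arrays. Each of the 2 ZT18 calls at 12 weeks was lost without any 1 of 5 mice of those groups (adjusted p up to 0.193 and 0.137), Cpt1a at 30 weeks without any 1 of 4 mice and Eci2 at 30 weeks in 22 of 32 fits. On the same slide, the CJ mouse exceeded its NS counterpart at ZT18 by 0.98 and 0.95 in Cpt1a and by 0.58 and 0.54 in Eci2.

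Ppara and Angptl4 behaved in a similar way at ZT18 and 30 weeks. Ppara stood at 5.61 and 6.06 at ZT2, 6.11, 5.85 and 6.19 at ZT10, and 6.2, 5.98 and 5.95 at ZT18 in CJ mice at 12 weeks, and at 5.96 and 5.15 at ZT2, 6.03, 6.14 and 6.31 at ZT10, and 6.24, 6.06 and 6.06 at ZT18 at 30 weeks. All 3 CJ mice at ZT18 were above all 3 NS mice at each age, by 0.63 ± 0.17 at 30 weeks (adjusted p = 0.0444, lost in 18 of 32 leave-one-out fits) and by 0.37 ± 0.17 at 12 weeks (not called). Angptl4 stood at 5.12 and 5.55 at ZT2, 6.43, 5.99 and 6.13 at ZT10, and 6.21, 5.78 and 5.53 at ZT18 in CJ mice at 12 weeks, and at 5.34 and 4.13 at ZT2, 6.3, 6.0 and 5.98 at ZT10, and 6.22, 5.73 and 5.93 at ZT18 at 30 weeks. Its CJ mice were again all above the NS mice at ZT18, by 1.04 ± 0.28 at 30 weeks (adjusted p = 0.0406, lost in 9 of 32 fits) and by 0.85 ± 0.28 at 12 weeks (not called). Both calls at 30 weeks were lost without the acinar-rich arrays. They were also lost without the muscle-rich arrays, which left only NS mouse 2 and CJ mouse 3 at that time and age. Other markers separated the schedules at that time and age too: the mean of 6 Kupffer cell markers was 3.25, 3.65 and 3.85 in CJ mice and 2.55, 2.84 and 3.17 in NS mice. The mean of 8 genes that respond to feeding ran from 5.55 to 5.84 in CJ mice and from 4.54 to 5.11 in NS mice. Their part in the ZT18 differences was not tested. Decr2 in CJ mice stood at 4.86 and 5.28 at ZT2, 5.66, 5.33 and 5.68 at ZT10, and 5.4, 5.61 and 5.68 at ZT18 at 12 weeks, and at 5.39 and 5.08 at ZT2, 5.42, 5.21 and 5.41 at ZT10, and 5.36, 5.38 and 5.18 at ZT18 at 30 weeks, and its schedules overlapped at ZT10 and ZT18 of both ages.

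**Figure D4:**
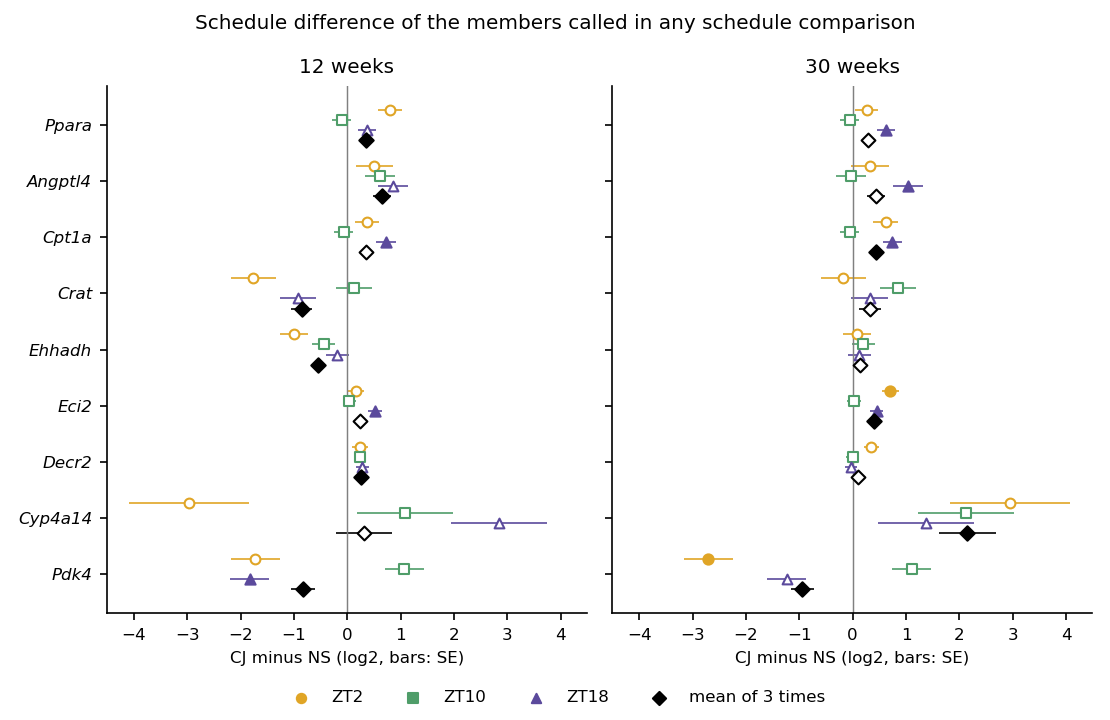
CJ minus NS difference (log2, bars show the SE) at ZT2, ZT10, ZT18 and over their mean for the 9 members called in at least 1 of these comparisons, at 12 weeks (left) and 30 weeks (right). Filled symbols passed an adjusted p under 0.05, and for Pdk4 the ZT10 difference lies on the opposite side of 0 from ZT2 and ZT18.

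The 2 CJ mice at ZT2 and 30 weeks also carried an acute phase signal. The mean of Saa1, Saa2, Lcn2 and Orm3, secreted proteins of inflammation, was 6.70 and 6.09 there against 2.13 to 2.39 in NS mice of that time and age. Igfbp1, a secreted liver protein that rises in fasting, stood at 1.94 and 3.50 in those CJ mice and at 6.59 and 7.01 in the NS mice. The part of either in the ZT2 differences of Pdk4 and Eci2 was not tested.

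Some members differed widely between mice of 1 group. The SD within groups was 1.25 for Cyp4a14, which starts the degradation of fatty acids from the methyl end, 1.03 for Acot3, 0.87 for Cyp4a10, 0.77 for Fgf21, a liver hormone of fasting, 0.7 for Acot2 and 0.54 for Vnn1, a pantetheinase, and the 0.86 of Acadl came from 1 array described below. The median over the 37 members was 0.22, close to 0.23 for all genes. Cyp4a14 ran from 3.32 to 6.64 among the 3 CJ mice at ZT10 and 12 weeks and from 3.75 to 7.55 at ZT18, and its lowest value was 1.24 in an NS mouse at ZT18 and 12 weeks. In 8 of 8 groups of 3 mice, the mouse highest in Cyp4a14 was also highest in Acot1, and in 6 of 8 it was highest in Acot3, Acot4 and Cyp4a10. In 8 of 8 the mouse lowest in Cyp4a14 was also lowest in Acot3 and Crat. Such counts were not limited to the variable genes: Cpt2, Acaa1b, Hadha, Acadm, Acadl, Etfdh, Acsl1 and Pdk4 were also highest in that mouse in 6 of 8 groups, Vnn1 and Fgf21 in 5, and Angptl4 in 2. These genes may share probe signal where they are close copies, and the counts are a description with no test.

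Cyp4a14 had large schedule differences with large errors. At ZT2 its CJ minus NS difference was -2.97 ± 1.13 at 12 weeks and 2.95 ± 1.13 at 30 weeks, and neither was called (adjusted p = 0.306 and 0.235). At 30 weeks CJ mice were higher at all 3 times, by 2.13 ± 0.90 at ZT10 and 1.37 ± 0.90 at ZT18. The interaction at 12 weeks had a range of 5.81 between times and did not pass (adjusted p = 0.0895). Whether the schedule difference of Cyp4a14 itself changed with age was not tested. CJ ZT10 mouse 2 at 12 weeks, with an acinar mean of 4.02 and an acute phase mean of 6.17, was low in Cyp4a14 (3.32), Cyp4a10 (3.81), Acot1 (3.11) and Acot3 (-0.92) beside its group.

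**Figure D5:**
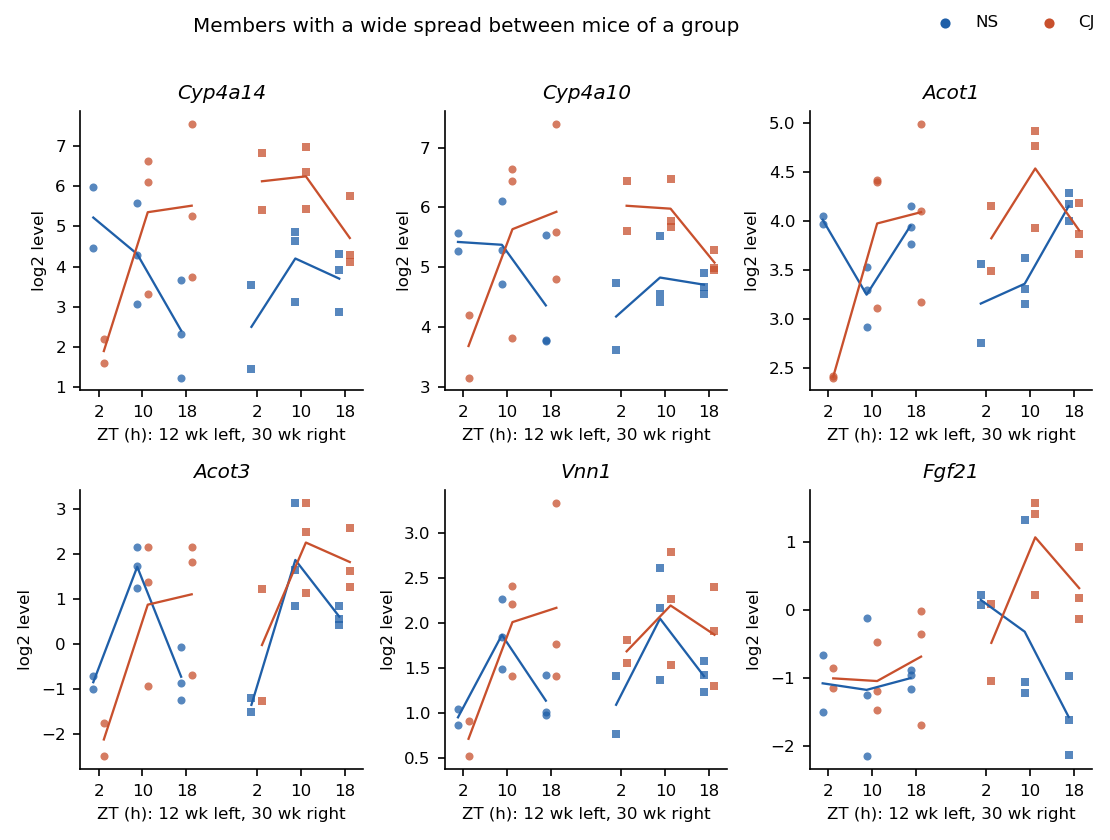
Level (log2) of Cyp4a14, Cyp4a10, Acot1, Acot3, Vnn1 and Fgf21 in each mouse (points) with the group mean (lines) by ZT, for NS (blue) and CJ (orange), at 12 weeks on the left and 30 weeks on the right of each panel. Mice of 1 group are spread widely in Cyp4a14, for example from 3.75 to 7.55 in CJ mice at ZT18 and 12 weeks.

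The genes of the mitochondrial spiral had 1 call in all. The acyl-CoA dehydrogenases Acadvl, Acadm and Acads, the trifunctional protein subunits Hadha and Hadhb, Hadh, the thiolase Acaa2, the reductase Decr1 and the electron acceptor Etfdh were called in 0 of 16 comparisons in limma, and their group means spanned at most 0.47. At unadjusted p under 0.05, 5 of the 11 genes of this group passed over the day in CJ mice at 12 weeks, with no share of all genes counted. Of these Eci1, the mitochondrial enoyl-CoA isomerase, was called (range 0.55, adjusted p = 0.0328, lost in 3 of 32 fits). Acadl, the long-chain dehydrogenase, spanned 1.85, but this came from CJ ZT10 mouse 3 at 12 weeks, which stood at -1.20 where every other array lay between 3.01 and 3.89. That array had the lowest endothelial marker mean (0.53) and an acinar mean of 3.75, and their part in this value was not tested. Acadl was singled out after its values were seen. Slc25a20, the carnitine carrier of the inner membrane, and Fabp1 were also called in 0 comparisons, as was Acot2, the mitochondrial thioesterase, which was not well above background on either CJ array at ZT2 and 12 weeks.

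The last comparison was of the ages within each schedule, over the mean of the 3 times. In NS mice limma called 0 of 37 members (2 at unadjusted p under 0.05), where 0.541% of all genes were higher and 0.32% lower at 30 weeks, and the authors' deposited log2 table gave 0 of its 35 members, with 0.796% of its genes. In CJ mice 3 of 37 were higher at 30 weeks, where 2.26% of all genes were higher, and 0 of 37 lower, where 2.73% were lower. Crat rose by 1.02 ± 0.20 (adjusted p = 0.00437) and was kept in 32 of 32 leave-one-out fits. Fgf21 rose by 1.20 ± 0.34 (adjusted p = 0.039, lost in 12 of 32 fits) and Acaa1b by 0.40 ± 0.09 (adjusted p = 0.0151, 0.105 without CJ ZT2 mouse 1 of 30 weeks). Without the acinar-rich arrays 0 of 37 were called (adjusted p = 0.2 for Crat, 0.466 for Fgf21 and 0.553 for Acaa1b), and without the muscle-rich arrays Fgf21 was lost (adjusted p = 0.102). Whether the age effect differed between the schedules was not tested.

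A wider list of 56 genes of the same pathways, all measured, was examined beside the members. Over the day, 19 of 56 (33.9%) were called in NS mice at 12 weeks, where 17.5% of all genes were. At 30 weeks 10 (17.9%) were called, where 11.2% of all genes were. In CJ mice 7 (12.5%) and 4 (7.14%) were called, where 5.67% and 3.71% of all genes were. The interaction called 3 of 56 at 12 weeks (Ppard, Ppargc1b and Hacl1), with 1.93% of all genes, and 5 at 30 weeks, with 1.87%. Ppard, the PPAR isoform beside Ppara, led the list: over the mean of the 3 times it was lower in CJ mice by 1.05 ± 0.09 at 12 weeks (adjusted p = 1.93e-06) and by 1.22 ± 0.09 at 30 weeks (adjusted p = 1.14e-07). Its difference was called at ZT2 (-1.83 and -2.35 at 12 and 30 weeks) and ZT18 (-1.64 and -1.40), but not at ZT10. In NS mice Ppard was highest at ZT2 at both ages, and in CJ mice its range over the day was not called. The interaction called it at both ages. Over the mean of the 3 times, 4 of 56 were higher and 5 lower in CJ mice at each age. Of all genes, 1.95% were higher and 2.41% lower at 12 weeks, and 1.93% higher and 4.07% lower at 30 weeks. Acsl5, an acyl-CoA synthetase, was among those lower at 12 weeks, by 0.55 ± 0.06. Lpin1, a phosphatidate phosphatase that also acts with PPARA, was higher in CJ mice at ZT18 by 1.39 ± 0.33 at 12 weeks and 2.48 ± 0.33 at 30 weeks (adjusted p = 0.0228 and 0.000272). With age, Cyp4a12a and Cyp4a12b, male-biased omega-hydroxylases, were the 2 called in NS mice, both lower by 0.53 ± 0.12 (2 of 56, with 0.32% of all genes lower). Dbp, a clock-driven factor given as a reference for the clock, averaged 0.42, 6.83 and 2.37 at ZT2, ZT10 and ZT18 in NS mice at 12 weeks and 4.76, 5.46 and 5.14 in CJ mice.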

How the data were processed

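Total RNA of whole liver was labelled with Cy3 and hybridised to 1-colour Agilent arrays, 1 mouse each, in 12 groups of 2 or 3 mice. The deposited scanner files hold spot intensity from Feature Extraction 11.0.1.1 per the file headers (9.1 per the submitters' processing notes), with background removed in the processed intensity. The authors' deposited series table holds log2 values of 15148 probes, which served as an alternative. Its normalization is not given in the sources used here, and its column medians lie between 9.82 and 9.90.

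Control and outlier spots were left out, processed intensity was divided by the 75th percentile of its array and taken to log2, and spots of a probe were averaged. A probe was kept if, in 1 group or more, each array had it well above background, and the brightest probe stood for a gene. Probes carry no symbol and were named through their RefSeq accession (GRCm38.p6 table, 26582 of 55681 probes). Genes without a symbol were tested under their identifier.

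The 12 group means were fitted with limma 3.58.1 in R 4.3.3, all groups together, with the slide as a random block (correlation 0.24) and Benjamini-Hochberg adjustment over 23106 genes. A range is the highest minus the lowest of the 3 time means (for the interaction, of the 3 CJ minus NS differences). A slide was also a scan. The normexp alternative used median signals, since the mean-signal column was absent. All members could be named. Values per mouse were given for members that passed the interaction and for up to 8 others called in the most comparisons (ties by range), and of the wider list up to 3 called genes of largest change per comparison were named. The number of arrays limits the precision, and p-values measure the spread between mice. The mouse numbers in the labels did not pair the mice: same-numbered arrays had a mean correlation of deviations of -0.02, against 0.01 for others. The members, lists and tests were chosen with earlier results of these data known. The fits were tested on simulated data.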

Additional observations from a re-analysis of the deposited data

Results flagged for a closer look

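The daily course of Pdk4 differed between the schedules by the interaction test in limma at both ages. The CJ minus NS difference varied by 2.90 between times at 12 weeks (adjusted p = 0.00729) and by 3.81 at 30 weeks (adjusted p = 0.0037). At each age all 3 CJ mice lay above all 3 NS mice at ZT10 and below them at ZT18, and both CJ mice lay below both NS mice at ZT2.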

How the results depend on the processing

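Of the 56 calls of members in a comparison, 51 were kept under quantile normalization, 49 under normexp, 48 of 54 in the deposited table, 36 with no filter on dim probes, 24 with the slide as a fixed block, 45 with no slide block, 43 with marker covariates, 18 of 55 without the acinar-rich arrays and 19 of 55 without the muscle-rich arrays. Of these calls 34 are ranges, which have no sign, and of the 22 signed differences 0 turned direction. The deposited table holds 35 of the 37 members. Leaving out arrays was chosen after seeing the data and also removes degrees of freedom. The cause of the other changes was not tested. Among the counts that follow, only those of the deposited table have the share of all genes beside them. Under the other settings and in the leave-one-out fits, a changed count is therefore not a result about the members in particular.

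Counts of members called, by time of day in CJ mice at 12 weeks (9), were 18 in the deposited table (with 18.4% of its genes). They were 5 with no filter, 1 with the fixed slide block, 1 without acinar-rich and 3 without muscle-rich arrays. By time in CJ mice at 30 weeks (2), they were 6 in the deposited table (with 13% of its genes). They were 1 with no filter, the fixed block, the covariates, and without acinar-rich or muscle-rich arrays. By time in NS mice, they were 6 at 12 weeks (11) without muscle-rich arrays, and at 30 weeks (10) 5 with the fixed block and 4 without either set of arrays. For the interaction (1 at each age), they were 8 and 5 in the deposited table (with 5.76% and 9.76% of its genes). They were 0 at both ages with the fixed block and without either set of arrays, and 0 at 12 weeks with the covariates.

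For the schedule difference of the mean at 12 weeks (6), counts were 2 with no filter, 2 with the fixed block, 0 with no slide block, 0 without acinar-rich and 1 without muscle-rich arrays. At 30 weeks (4), they were 8 with quantile normalization, 7 with normexp, 8 in the deposited table (with 13.4% of its genes), and 2 without either set of arrays. At ZT2 and 12 weeks (0), they were 1 with normexp, in the deposited table (with 0.615% of its genes) and without acinar-rich arrays. At ZT2 and 30 weeks (2), they were 1 with no filter, the fixed block and without acinar-rich arrays, and 0 without muscle-rich arrays. At ZT10 (0), the deposited table gave 1 at 12 weeks (with 11.3% of its genes) and 3 at 30 weeks (with 4.04%). At ZT18 and 12 weeks (3), counts were 9 in the deposited table (with 6.96% of its genes). They were 1 with no filter, 0 with the fixed block, the covariates and without acinar-rich arrays, and 1 without muscle-rich arrays. At ZT18 and 30 weeks (4), they were 7 in the deposited table (with 13% of its genes). They were 1 with no filter, 7 with only probes above background on all arrays, 0 with the fixed block, 1 without acinar-rich and 0 without muscle-rich arrays. For age in CJ mice (3), they were 5 with quantile normalization, 1 with the fixed block and 0 without acinar-rich arrays.

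Leaving out 1 mouse at a time gave 7 to 13 and 6 to 11 members by time in NS mice at 12 and 30 weeks, and 2 to 14 and 1 to 3 in CJ mice. It gave 1 to 3 and 1 to 1 for the interaction, 0 to 8 and 1 to 8 for the mean difference, 0 to 4 and 0 to 2 at ZT2, 0 to 1 and 0 to 2 at ZT10, 0 to 3 and 0 to 6 at ZT18, and for age 0 to 0 in NS and 1 to 10 in CJ mice. With a replicate block on the mouse number, which did not pair the mice (3 of 32 arrays correlated best with their own number), 48 of 56 calls were kept, and 11, 6, 9 and 2 members were called by time in NS 12, CJ 12, NS 30 and CJ 30 weeks. Dim members limit the precision: Acot2 and Crat were near background, and both were absent from the probes of the deposited table.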
